A study of Homo sapiens with 18 samples.

Results

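Integrins and laminins were examined as 2 families that meet at the underside of an epithelial cell. The members were all listed gene symbols of integrin alpha chains (ITGA), integrin beta chains (ITGB1 to ITGB8) and laminin alpha, beta and gamma chains (LAMA, LAMB and LAMC). This rule took 38 of 40916 symbols: 18 integrin alpha, 8 integrin beta, 5 laminin alpha, 4 laminin beta and 3 laminin gamma genes. No measured value entered the rule. All 38 had at least 1 count in some library.

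The study sequenced poly(A) messenger RNA of 18 cultures, 3 biological replicates in each of 6 groups. MCF10A, a non-transformed human mammary epithelial line, carried a GFP-tagged histone H2B, and HCT116, a human colorectal carcinoma line, was unlabelled and p53-null. Each line was grown alone and in a mixture described as 50% of each, and each was either exposed to 10 Gy of ionizing radiation (IR) or not exposed (NIR). The sample titles name day 2 and the series text names 72 hours as the time of harvest. MCF10A grew in medium with horse serum, EGF, hydrocortisone, cholera toxin and insulin, and HCT116 in McCoy's 5A with fetal bovine serum, so differences between the lines and between their media cannot be told apart. The medium of the mixtures, and whether either line was 1 clone, are not given in the sources used here.

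An integrin is a receptor of 1 alpha and 1 beta chain that spans the plasma membrane and ties the matrix outside to the cytoskeleton inside. A laminin is a cross-shaped trimer of 1 alpha, 1 beta and 1 gamma chain and a founding component of basement membranes. In stratified and glandular epithelia a trimer with the chains LAMA3 and LAMB3 is the anchor to which the receptor of ITGA6 and ITGB4 binds in hemidesmosomes, while receptors of ITGB1 serve collagens, fibronectin and laminins.

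The libraries held 25737818 to 40839835 counts, and levels are given as CPM, counts divided by the library total and multiplied by 1e+06. A list of 6 basal mammary markers summed to 5868 to 8181 CPM in the MCF10A libraries and to 3.37 to 32.4 CPM in the HCT116 libraries. Of 7 colorectal markers, 2 reached 1 CPM in HCT116, where the list summed to 307.3 to 339.2 CPM, mostly EPCAM, and CDX1 was at 0. MCF10A was at 7.68 to 11.2 CPM for that list. Of 7 leukocyte markers, 1 or 2 reached 1 CPM in any group, led by CORO1A. In bulk RNA, fewer cells of a type and less RNA per cell cannot be told apart. Antisense genes of some members are listed beside them, such as ITGA6-AS1, and the strand setting of the counting is not given in the sources used here.

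Of the 38 members, 25 reached a mean of 10 CPM in at least 1 group and 5 more reached 5 CPM. The other 8 stayed lower: ITGAM, ITGA9 and LAMB4 peaked between 1 and 5 CPM, and ITGB7, ITGAD, ITGA11, ITGAL and ITGA8 stayed under 1 CPM in every group mean. To set genes beside each other, CPM were divided by the length of the merged exons in kilobases. On this per-length scale ITGB1 was at 403.0 ± 5.39 CPM per kilobase (SD, n = 3) in MCF10A NIR, ahead of LAMB3 (356.1 ± 5.38) and ITGA6 (281.9 ± 6.09). These neighbours in the order did not overlap, whereas ITGA3 (155.8 ± 4.64) and LAMA3 (152.3 ± 5.15) did. In HCT116 NIR the order was ITGB1 (187.5 ± 9.16), ITGA3 (87.7 ± 3.87), ITGB4 (77.1 ± 5.08) and ITGA6 (44.1 ± 1.86), followed by LAMB1 (31.5 ± 4.52) as the leading laminin chain, with libraries that overlapped those of LAMC1 (26.7 to 30.5). After irradiation LAMB3 stood at 815.3 ± 8.40 CPM per kilobase in MCF10A, now above ITGB1 (610.4 ± 7.48). In HCT116 IR, ITGB4 (158.2 ± 14.1) had passed ITGA3 (91.6 ± 6.55).

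LAMA3 and LAMB3, chains of the epithelial anchoring laminin, rose in MCF10A after irradiation. Before values, stretches upstream of a listed start of each gene are shown, because these genes moved together there. Promoter windows of 26 members were in RefSeq's table on GRCh38.p14, with 33 windows of 300 bases each. The motif TGANTCA, the core of AP-1 binding sites, was searched on both strands in the 250 bases before each start. It occurred there for LAMA3 and LAMB3, that is in 2 of the 33 windows, and in 6.6% of all 35116 promoters in the table. The capitals mark the motif. The LAMB3 stretch is chr1:209651375-209651624 on the minus strand, with the motif 67 bases before that start and no GENCODE 29 exon overlapping it. The stretch lies inside the gene, which spans chr1:209614870-209652425. Both LAMA3 sites lie on the plus strand, at chr18:23872884-23872912 and chr18:23872940-23872968, 125 and 69 bases before the listed start and overlapping an exon of LAMA3 in GENCODE 29. That start is an internal one, since the gene spans chr18:23689453-23955066.
LAMB3 upstream: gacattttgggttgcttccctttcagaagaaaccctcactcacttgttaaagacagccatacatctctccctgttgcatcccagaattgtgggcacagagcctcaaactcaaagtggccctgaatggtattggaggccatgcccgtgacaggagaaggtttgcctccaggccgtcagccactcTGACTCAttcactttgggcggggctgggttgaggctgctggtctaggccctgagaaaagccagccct
LAMA3 first site: ctggcacaggcTGACTCAtgtgtgaagtt
LAMA3 second site: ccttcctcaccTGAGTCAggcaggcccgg
The match describes these letters only. No binding was measured, and counts per gene do not show which starts were used.

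The question of the first comparison was what 10 Gy did to the adhesion genes of MCF10A. Of 38 members, 33 passed the filter on low counts. By edgeR's quasi-likelihood test with Benjamini-Hochberg adjustment over 15154 genes, 21 were higher and 5 lower after irradiation, among 26.2% higher and 29.2% lower of all genes tested. The median log2 fold change was 0.66 over the tested members and 0 over all genes. The rise took in 6 of 11 tested laminin and 15 of 22 tested integrin genes. Fibroblast markers summed to 121.1 to 133.0 CPM in NIR and 247.0 to 261.8 CPM in IR libraries, mostly DCN with COL3A1 at 0, and their part in these results was not tested.

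LAMA3, whose product is the alpha chain that integrins grip, was at 1746, 1637 and 1661 CPM in the NIR and 4678, 4787 and 4454 CPM in the IR libraries. LAMB3, the beta chain, went from 1623, 1575 and 1597 to 3677, 3686 and 3617 CPM. In both genes every irradiated library lay above every control library, with spreads within a group far smaller than the gap. Their log2 fold changes were 1.44 for LAMA3 (SE 0.036, adjusted p = 4.4e-22) and 1.17 for LAMB3 (SE 0.033, adjusted p = 2.4e-21).

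The laminin chains of other trimers moved in either direction or were not called. LAMB1, the beta chain of the widespread laminins, was at 677.8, 681.8 and 708.1 CPM in NIR and 591.2, 608.0 and 565.6 CPM in IR libraries, a fall of 0.25 on the log2 scale (adjusted p = 3.6e-06). LAMC1, its usual gamma partner, changed from 652.1 ± 13.9 to 613.6 ± 11.5 CPM (SD, n = 3), a log2 fold change of -0.11 (adjusted p = 0.015). That small fall was not called with upper-quartile scaling, with all 6 groups in 1 fit, or without MCF10A NIR replicate 3 or MCF10A IR replicate 1. LAMA5, an alpha chain of most adult epithelial basement membranes, stood at 492.9 ± 12.9 and 508.4 ± 14.7 CPM and was not called, with a log2 fold change of 0.02 (95% interval -0.05 to 0.10). With upper-quartile scaling LAMA5 was called, at 0.11. LAMB2, a beta chain found at synapses and glomeruli, rose from 80.3, 71.6 and 76.2 to 125.1, 120.1 and 121.8 CPM (log2 fold change 0.66, adjusted p = 8.1e-12). LAMA1, an alpha chain of embryonic basement membranes, rose from 9.53, 8.73 and 7.31 to 16.0, 15.4 and 19.0 CPM (0.96, adjusted p = 1.3e-07).

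Of the integrins that bind laminins and collagens, most rose in irradiated MCF10A to unlike degrees, ITGA10 fell and ITGA7 was not called. ITGB4, the hemidesmosome beta chain, went from 654.4, 630.6 and 666.5 to 1211, 1242 and 1176 CPM (log2 fold change 0.87, SE 0.037, adjusted p = 2.5e-17). Its alpha partner ITGA6 went only from 1679, 1608 and 1650 to 1798, 1787 and 1809 CPM (0.11, adjusted p = 0.0083), a change that was not called with all 6 groups in 1 fit (adjusted p = 0.11). ITGA2, a collagen receptor chain, was at 267.3, 261.4 and 293.1 CPM without and 571.1, 581.6 and 536.4 CPM with irradiation, a log2 fold change of 1.02. ITGA3, a laminin receptor chain, rose from 787.5, 749.8 and 746.8 to 1311, 1294 and 1304 CPM (0.75), and the shared partner ITGB1 from 1588, 1561 and 1603 to 2388, 2432 and 2376 CPM (0.58). The largest adjusted p of these last 3 was 1.6e-14. ITGA1, another collagen receptor chain, rose by 0.32, and ITGA10, a collagen receptor chain best known from cartilage, fell from 32.3, 25.6 and 31.1 to 13.9, 15.6 and 10.8 CPM (-1.17, adjusted p = 7.3e-10).

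Among the receptors for fibronectin, vitronectin and latent TGF-beta, which bind the RGD peptide, the beta chains split. ITGB6, an epithelial beta chain that activates latent TGF-beta, rose from 52.0, 56.9 and 51.6 to 134.3, 130.5 and 136.6 CPM (log2 fold change 1.30, adjusted p = 1.4e-17). ITGB3, the vitronectin receptor beta chain, rose from 1.23, 1.13 and 0.751 to 8.12, 6.89 and 4.56 CPM (2.61, SE 0.253, adjusted p = 8.6e-10). ITGB5 was at 119.0 ± 3.58 and 119.9 ± 1.33 CPM and ITGB8 at 104.5 ± 3.04 and 111.1 ± 4.02 CPM (SD, n = 3), and neither was called. With upper-quartile scaling ITGB8 was called, at 0.15. The alpha chains ITGA5, of the fibronectin receptor, and ITGAV, of the vitronectin receptors, rose by 0.76 and 0.62. ITGA5 went from 202.4, 202.0 and 199.1 to 338.3, 377.5 and 323.5 CPM, and ITGAV from 329.8, 315.3 and 331.8 to 515.8, 495.6 and 507.9 CPM.

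Chains known mainly from leukocytes were present at low levels. ITGB2, the common beta chain of leukocyte integrins, rose from 9.56, 10.5 and 9.84 to 24.5, 21.6 and 28.1 CPM (log2 fold change 1.29, adjusted p = 3.8e-11). Its alpha partners ITGAM and ITGAX rose by 3.12 and 1.47, to means of 1.10 and 1.84 CPM. ITGAE, the alpha chain of an E-cadherin receptor of intraepithelial lymphocytes, fell from 16.8, 20.3 and 16.3 to 15.2, 12.1 and 10.1 CPM (-0.55, adjusted p = 0.00051), and ITGA4 from 6.50 ± 0.523 to 2.89 ± 0.695 CPM (-1.20). The summed leukocyte markers moved from 7.82 to 9.16 CPM in NIR to 9.26 to 10.2 CPM in IR libraries, and their part in these results was not tested. LAMA2 was called at 0.72 (adjusted p = 0.043), and lost the call with DESeq2, with the replicate block (adjusted p = 0.06) and without MCF10A NIR replicate 1 or 2 or MCF10A IR replicate 2 or 3, down to 0.46 (adjusted p = 0.29). ITGA2B, ITGA7 and LAMA4 stayed under 1 CPM in both groups and were not called, and LAMC3 was too low to test.

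**Figure D1:**
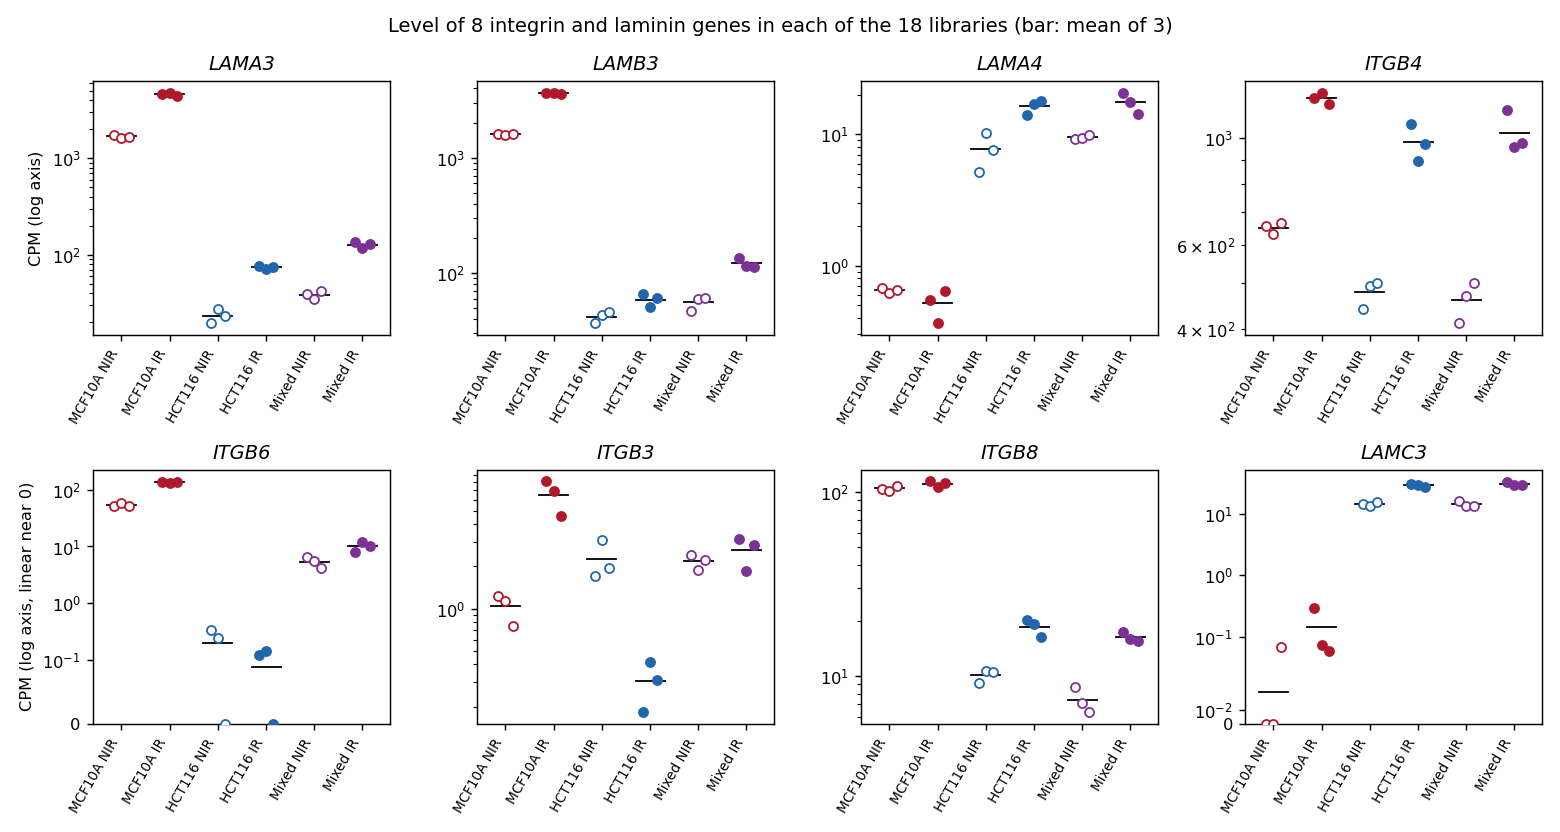
CPM (log axis, linear near 0 for the genes that have libraries at 0) of 8 members in each of the 18 libraries, grouped by culture and treatment, with open points for NIR, filled points for IR and a bar at the mean of 3. The anchoring laminin chains LAMA3 and LAMB3 stand at 1575 CPM or more in every MCF10A library and at 135.4 CPM or less in all others, and ITGB3 moves up in MCF10A (1.04 to 6.52 CPM) and down in HCT116 (2.25 to 0.303 CPM).

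The same dose was then followed in HCT116. Of 31 members tested, 12 were higher and 7 lower after irradiation by edgeR's quasi-likelihood test, among 25.3% higher and 27.2% lower of 16857 genes. The median log2 fold change was 0.08 over these members and 0.01 over all genes. Of 10 tested laminin genes 7 rose and 0 fell, and of 21 tested integrin genes 5 rose and 7 fell. The integrin counts were near the shares over all genes, and the families were not tested against each other.

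LAMA3 rose from 19.5, 27.1 and 23.2 to 76.9, 71.8 and 74.6 CPM, a log2 fold change of 1.69 (SE 0.093, adjusted p = 5.5e-13). LAMB3 rose less, from 36.6, 43.0 and 46.2 to 65.5, 50.9 and 60.2 CPM (0.50, SE 0.093, adjusted p = 9.6e-05). Both chains thus rose in HCT116, LAMA3 by the larger fold change, from levels far below those of MCF10A.

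The other laminin chains that rose are partners of different trimers. LAMC3, a gamma chain of retina and reproductive tissue, rose from 14.3, 13.5 and 15.4 to 29.9, 29.7 and 26.8 CPM (log2 fold change 1.01, adjusted p = 1.0e-08). LAMA4, an alpha chain best known from vessels, rose from 5.21, 10.3 and 7.60 to 14.0, 17.1 and 17.8 CPM (1.09, adjusted p = 1.1e-05). Smaller rises were called for LAMB2 (0.32), LAMA5 (0.27) and LAMC1 (0.18). LAMA5 was at 279.2, 252.3 and 247.7 CPM in NIR and 330.3, 278.1 and 325.5 CPM in IR libraries, so that the groups touched. LAMC1 was not called without HCT116 NIR replicate 2 or 3 or without HCT116 IR replicate 1, where its adjusted p lay between 0.059 and 0.069. LAMB1 was not called (0.08, 95% interval -0.07 to 0.23), except without HCT116 NIR replicate 1 (0.19, adjusted p = 0.021).

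ITGB4 was the integrin of high level that rose in HCT116, from 440.9, 491.5 and 498.5 to 1069, 895.0 and 971.3 CPM (log2 fold change 1.04, SE 0.066, adjusted p = 5.2e-12). Its partner ITGA6 moved the other way, from 257.3 ± 10.9 to 226.3 ± 6.46 CPM (-0.18, adjusted p = 0.013), a fall that was not called without HCT116 NIR replicate 3 or HCT116 IR replicate 1. ITGB8, a beta chain of a latent TGF-beta receptor, rose from 9.14, 10.7 and 10.5 to 20.2, 19.2 and 16.3 CPM (0.89, adjusted p = 1.4e-06). ITGB1 was at 776.7, 727.3 and 706.6 CPM and then 704.1, 753.0 and 705.0 CPM, overlapping groups with a log2 fold change of -0.02 (95% interval -0.13 to 0.08). ITGA2 (0.05), ITGA3 (0.07), ITGB5 (0.01), ITGA7 (-0.20), ITGA10 (0.41) and LAMA2 (-0.20) were not called either.

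The integrins that fell in HCT116 included chains that rose in MCF10A. ITGB3 went from 1.71, 3.08 and 1.95 to 0.183, 0.416 and 0.311 CPM (log2 fold change -2.84, SE 0.436, adjusted p = 7.8e-06), and ITGA2B, its partner in platelets, from 8.13, 7.55 and 6.23 to 2.68, 2.11 and 2.18 CPM (-1.65, adjusted p = 1.7e-07). The platelet markers GP9, PF4 and PPBP were at 0 in all HCT116 libraries, whereas GP1BA held the platelet list at 10.1 to 11.5 CPM. ITGA1 went from 8.33, 7.86 and 8.72 to 3.87, 3.67 and 5.28 CPM (-0.96, adjusted p = 4.8e-05), and ITGA5 from 62.6, 65.5 and 68.0 to 50.4, 43.9 and 49.0 CPM (-0.45, adjusted p = 2.0e-05). ITGAE, at 15.5, 16.2 and 14.0 and then 11.2, 11.5 and 12.0 CPM, fell by 0.39 as it had in MCF10A. ITGAV fell by 0.24 with groups that overlapped, from 176.5, 178.1 and 153.1 to 124.5, 142.8 and 159.4 CPM. The call for ITGAV was lost without HCT116 NIR replicate 2 (-0.21, adjusted p = 0.059) and without HCT116 IR replicate 1 (-0.16, adjusted p = 0.084). The rises of ITGAX (0.80), ITGAM (2.15) and ITGAD (1.34) ended at means of 5.34, 3.06 and 0.920 CPM, while the summed leukocyte markers went from 6.54 to 7.86 CPM in NIR to 2.77 to 4.74 CPM in IR libraries. The summed basal mammary markers also rose with irradiation in HCT116, from 3.37 to 4.86 CPM to 29.2 to 32.4 CPM, mostly COL17A1, and their part in these results was not tested.

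**Figure D2:**
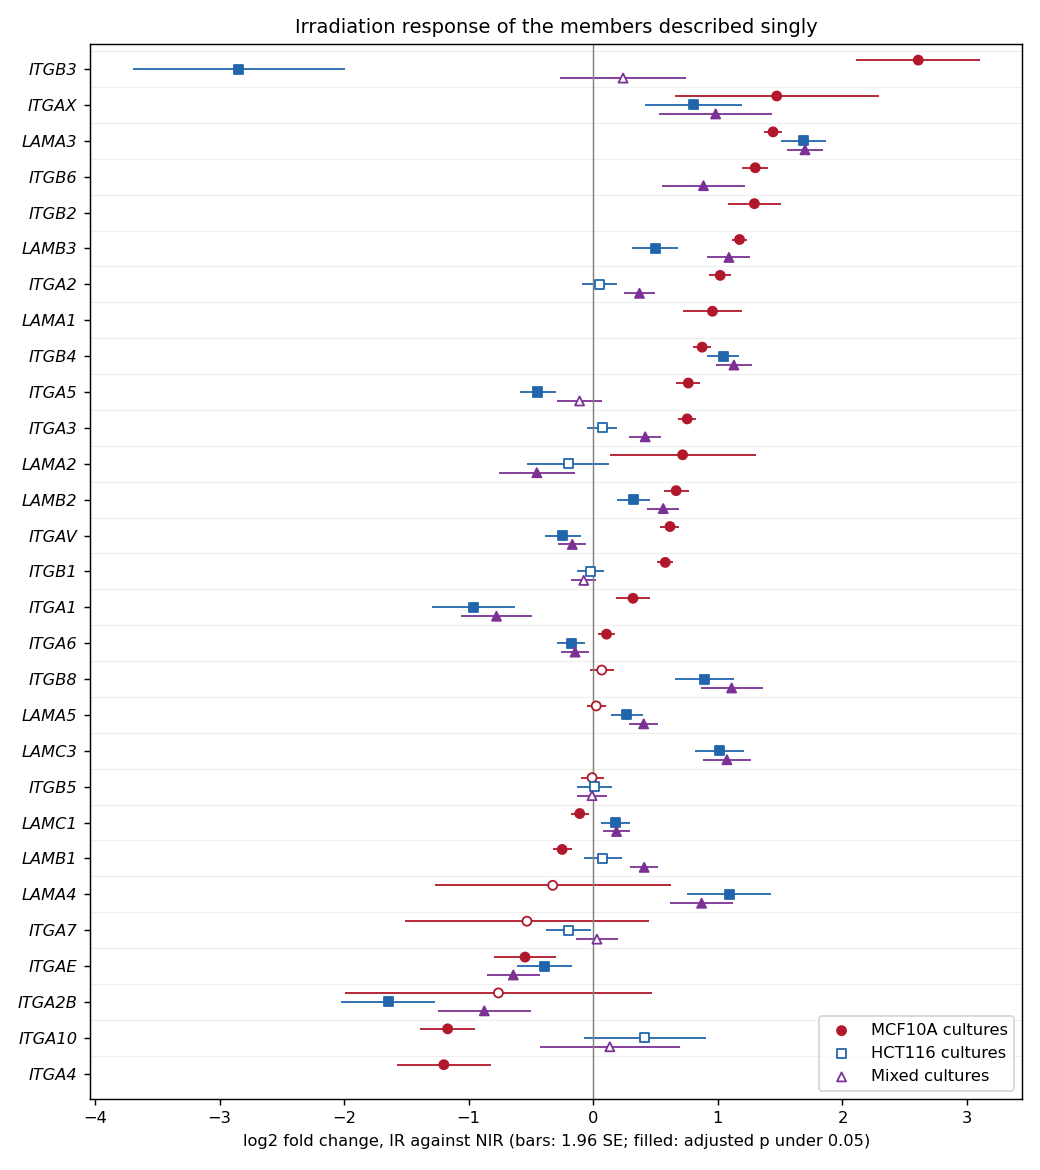
Log2 fold change of IR against NIR for the 29 members described singly, in MCF10A (circles), HCT116 (squares) and mixed cultures (triangles), with bars for 95% intervals and filled symbols for an adjusted p under 0.05; a missing symbol marks a member too low to test in that culture. For LAMA3, and likewise for ITGB4, the values of the 3 cultures lie near each other, whereas those of ITGB3 lie at 2.61, -2.84 and 0.24.

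Whether the lines answered differently was tested as a difference between their responses, HCT116 minus MCF10A, in 1 fit of the 12 monoculture libraries. Of 36 members tested, 6 differences were called higher and 14 lower in HCT116, among 15.4% higher and 21.9% lower of 18179 genes. The median difference was -0.66 over these members and -0.10 over all genes. LAMB3 differed by -0.75 (SE 0.0997, adjusted p = 1.2e-06). LAMA3 was not called at 0.17 (95% interval -0.02 to 0.36, adjusted p = 0.18), although it was called at 0.27 without a filter, with all 6 groups in 1 fit, and without mitochondrial and the most abundant genes, and at 0.28 to 0.30 without MCF10A IR replicate 1 or 2, HCT116 NIR replicate 2 or HCT116 IR replicate 2. ITGB4 was not called at 0.09 (95% interval -0.07 to 0.25), and called at 0.19 without a filter and at 0.26 without HCT116 IR replicate 2.

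Among integrins the difference was lower in HCT116 for 10 of 24 tested genes and higher for 2. ITGB3 differed by -5.53 (SE 0.486, adjusted p = 1.7e-09). ITGA5 differed by -1.29, ITGA1 by -1.37, ITGA2 by -1.05, ITGAV by -0.94, ITGA3 by -0.76, ITGB1 by -0.68 and ITGA6 by -0.36, all with adjusted p of 4.9e-05 or less. ITGB6 differed by -2.41 and ITGB2 by -1.70, each from under 1 CPM in HCT116. ITGB6 was not called without HCT116 NIR replicate 1 (-1.77, adjusted p = 0.11), nor ITGB2 without HCT116 NIR replicate 3 (-1.15, adjusted p = 0.11). ITGA10 (1.49) and ITGB8 (0.75) had the higher response in HCT116.

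For laminins 4 differences were higher and 4 lower. Beside LAMB3, LAMB2 (-0.42) and LAMA2 (-1.003) were among the lower ones, the latter with an adjusted p of 0.14 without MCF10A IR replicate 3. LAMA4 (1.33, adjusted p = 0.011), LAMC1 (0.21) and LAMB1 (0.25, adjusted p = 0.04) were higher, and LAMB1 lost the call in several alternatives, among them the replicate block (adjusted p = 0.057) and leaving out MCF10A NIR replicate 2 or 3, HCT116 NIR replicate 2 or 3 or HCT116 IR replicate 3. LAMA1 had 0 counts in HCT116 NIR and 1, 12 and 8 counts in the HCT116 IR libraries, so its fitted difference of 4.64 gives no bound on a fold, and with halved counts its adjusted p was 0.05. LAMA5 (0.17, adjusted p = 0.10) was called without a filter, with all 6 groups in 1 fit, without mitochondrial and the most abundant genes, and without any 1 MCF10A IR library, HCT116 NIR replicate 1 or HCT116 IR replicate 2. LAMC3 and ITGA4, each with groups near 0, were called only without MCF10A NIR replicate 3 (-4.30) and HCT116 NIR replicate 2 (5.47).

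Set side by side, LAMA3, LAMB3, LAMB2, ITGB4, ITGAX and ITGAM were called higher after irradiation in both lines, and ITGAE lower in both. ITGA1, ITGA5, ITGA6, ITGAV and ITGB3 were called higher in MCF10A and lower in HCT116, and LAMC1 lower in MCF10A and higher in HCT116. ITGA6 and LAMC1 lost their calls in some alternatives in both lines, and ITGAV in HCT116. Of all genes tested, 26.2% were called higher and 29.2% lower in MCF10A, and 25.3% higher and 27.2% lower in HCT116. The share of all genes called in both lines was not computed. ITGB5 and ITGA7 were called in neither.

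Without irradiation the lines differed for most members. Of 35 tested, 23 were lower and 10 higher in HCT116 than in MCF10A, among 36.1% lower and 38.7% higher of 16568 genes. The median over these members was -1.12, against 0.05 over all genes, or 0.25 over all genes with upper-quartile scaling. After irradiation 25 were lower and 8 higher of 36 tested, among 36.8% lower and 38.1% higher of 16932 genes, with a median of -1.64 against 0.04.

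Wide gaps were found in the anchoring laminin and in ITGB6. LAMA3 was lower in HCT116 by a log2 fold change of -6.38 (SE 0.096, adjusted p = 1.7e-19) and LAMB3 by -5.45 (SE 0.080, adjusted p = 1.4e-19), from the library values given above. ITGB6 had 12, 8 and 0 counts in the HCT116 NIR libraries, that is 0.347, 0.249 and 0 CPM, against 51.6 to 56.9 CPM in MCF10A (-8.16, SE 0.223). The ITGB6 value was -8.79 without HCT116 NIR replicate 1. ITGB2 (-5.19) was also near 0 in HCT116. ITGA4 had 0, 6 and 0 counts there, so that its fitted value of -6.79 became -10.79 without HCT116 NIR replicate 2 and is no measure of the fold. LAMA1 had no count in HCT116 NIR, and was at least 268.1-fold lower than in MCF10A against a floor of 3 counts over the 3 libraries, or at least 134-fold if the 2 mates of a read pair were counted singly. The 95% lower limit of the same ratio was 218, and both cover counting error only.

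ITGA6, at 257.3 ± 10.9 CPM in HCT116 and 1646 ± 35.6 CPM in MCF10A, was lower by a log2 fold change of -2.88, whereas its partner ITGB4 differed by only -0.65. ITGB8 (-3.57), ITGA10 (-3.96) and ITGA1 (-2.63) lay further down. Between -0.5 and -2.1 came LAMB1 (-2.01), ITGA5 (-1.82), LAMC1 (-1.74), ITGB1 (-1.30), ITGAV (-1.14), LAMA5 (-1.12), ITGA3 (-1.03), ITGB5 (-0.79) and ITGA2 (-0.51). ITGB5, at 115.6, 118.7 and 122.8 CPM in MCF10A and 85.3, 72.5 and 79.5 CPM in HCT116, did not overlap. ITGAE differed by -0.43, which was -0.22 and not called with upper-quartile scaling.

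The members higher in HCT116 included chains under 1 CPM in MCF10A. ITGA7, a laminin receptor alpha chain of muscle, was at 26.0, 27.6 and 29.1 CPM in HCT116 NIR and at 0.882, 0.620 and 0.683 CPM in MCF10A NIR (log2 fold change 5.04, adjusted p = 8.2e-15). LAMC3 had 2 counts in the 3 MCF10A NIR libraries together against 493, 436 and 425 counts in the HCT116 NIR libraries, a ratio of CPM of 711.2 with a 95% counting interval of 196.9 to 5873. ITGA2B (3.92), LAMA4 (3.37), ITGAX (2.05) and LAMA2 (2.04) were also higher in HCT116. LAMB2 differed by 0.26 without irradiation and by -0.14 after it, and the latter was 0.04 and not called with upper-quartile scaling. It also lost the call with all 6 groups in 1 fit and without MCF10A IR replicate 1 or 3 or HCT116 IR replicate 2. ITGAE after irradiation (-0.33, adjusted p = 0.03) lost it without MCF10A IR replicate 1 or HCT116 IR replicate 1 or 2. The ITGAE call was also lost with upper-quartile scaling (-0.15), with DESeq2 and with all 6 groups in 1 fit. ITGB3 changed sides, from 0.91 (adjusted p = 0.027) to -4.60. Its higher level without irradiation lost the call with the replicate block (adjusted p = 0.067), without MCF10A NIR replicate 3 and without HCT116 NIR replicate 2.

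**Figure D3:**
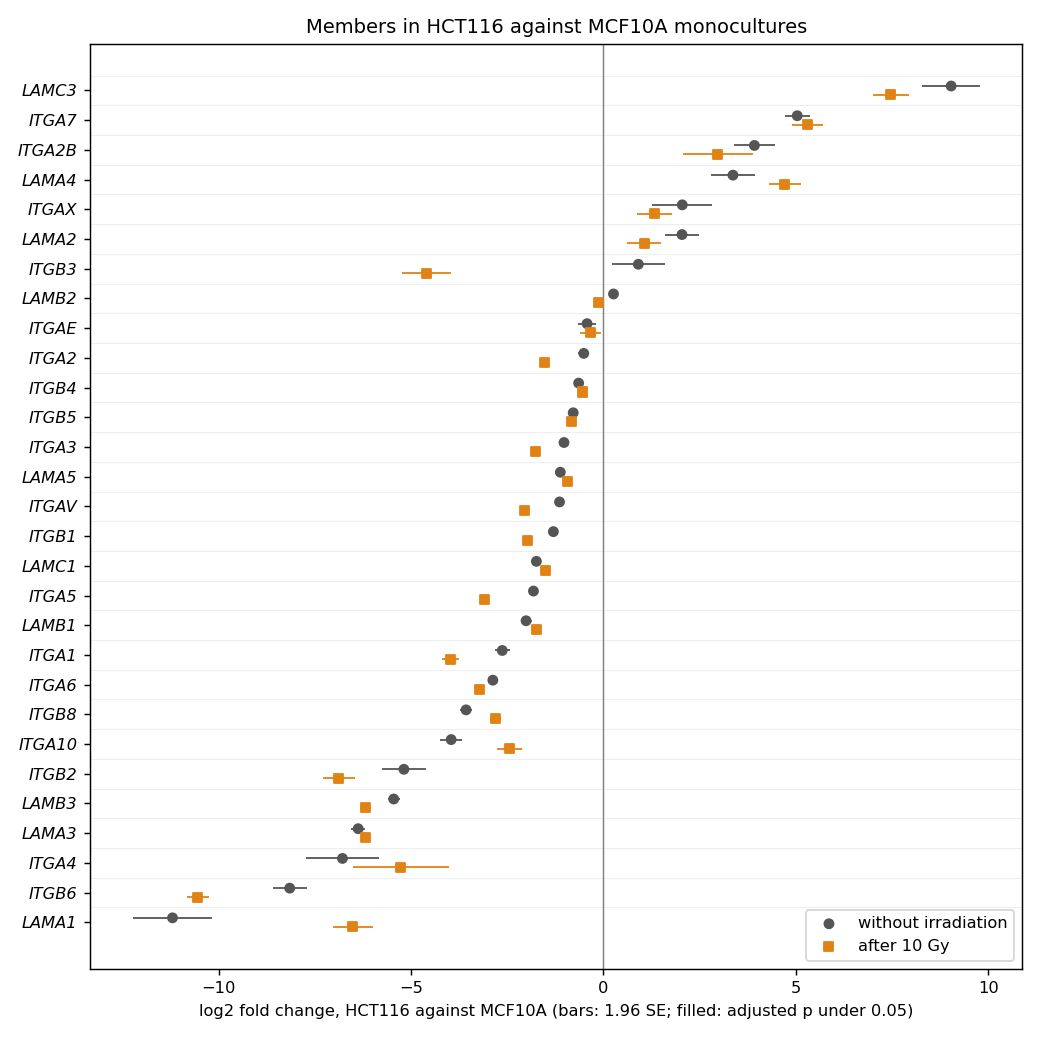
Log2 fold change of HCT116 against MCF10A for the 29 members described singly, without irradiation (circles) and after 10 Gy (squares), with bars for 95% intervals and filled symbols for an adjusted p under 0.05. LAMA3, LAMB3 and ITGB6 lie below -5 in both states and ITGA7 above 5, while ITGB3 moves from 0.91 to -4.60. The fitted values of LAMA1 and LAMC3 rest on 0 and 2 counts in 1 group and are no measure of the fold. The same holds for ITGA4, with 0, 6 and 0 counts in the HCT116 NIR libraries.

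Mixed cultures were compared to see whether the families differed from HCT116 grown alone. From 122 and 138 genes with at least 20 CPM in MCF10A and under 1 CPM in every HCT116 library, members left out, RNA of MCF10A made up 0.413% ± 0.074 of the NIR and 1.23% ± 0.051 of the IR mixtures (SD, n = 3), although the mixture was described as 50% of each line. The mixed libraries therefore held almost only HCT116 RNA. The comparisons of mixtures with HCT116, and the differences between responses, share the HCT116 libraries.

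Without irradiation 4 of 31 tested members were higher in the mixtures than in HCT116 and 0 lower, among 0.887% higher and 1.15% lower of 16455 genes (edgeR). At an unadjusted p under 0.05 there were 8 in either direction, among 14.4% of all genes. The calls over all genes were few and moved with single libraries, from 146 higher and 189 lower to 68 and 77 without Mixed NIR replicate 1, 77 and 101 without HCT116 NIR replicate 2 and 101 and 125 without HCT116 NIR replicate 3. ITGB6 was at 6.44, 5.51 and 4.14 CPM in the mixtures, against at most 0.347 CPM in HCT116 alone (log2 fold change 4.67, SE 0.428, adjusted p = 8.9e-06, and 5.30 without HCT116 NIR replicate 1). LAMA3 stood at 38.8, 34.5 and 41.8 CPM (0.74, adjusted p = 0.00071), above every HCT116 library. LAMB3 at 47.3, 59.3 and 61.3 CPM was called at 0.43 (adjusted p = 0.031), but not without HCT116 NIR replicate 1 or 2 or Mixed NIR replicate 2 or 3, where its adjusted p lay between 0.10 and 0.13.

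After irradiation 10 of 33 tested members were higher and 0 lower, among 5.08% higher and 3.48% lower of 17137 genes. At an unadjusted p under 0.05 there were 14 in either direction, among 20.7% of all genes. With the replicate block 13 members were called higher, while higher calls over all genes went from 871 to 1263. Calls over all genes went from 871 higher and 596 lower to 567 and 299 without Mixed IR replicate 2 and to 586 and 328 without Mixed IR replicate 3. ITGB6 was at 8.13, 11.9 and 10.1 CPM (log2 fold change 6.59, adjusted p = 2.0e-15). LAMB3 at 135.4, 116.1 and 112.8 CPM was higher by 1.04, and LAMA3 at 134.2, 117.2 and 129.2 CPM by 0.76. ITGB3, at 3.12, 1.87 and 2.84 CPM, was higher by 3.06 (SE 0.389, adjusted p = 1.9e-06). Smaller differences were called for ITGA5 (0.38), ITGA2 (0.35), ITGAV (0.23), LAMA5 (0.22) and LAMB2 (0.20). Of these, LAMB2 lost the call without HCT116 IR replicate 2 or 3 or any 1 of the Mixed IR libraries, ITGAV without HCT116 IR replicate 1 or 2 or Mixed IR replicate 2 or 3, and LAMA5 without HCT116 IR replicate 2 or Mixed IR replicate 3. ITGA3 was called without HCT116 IR replicate 1 (0.20), and LAMB1 without HCT116 IR replicate 3 (0.19). The summed basal mammary markers were at 14.2 to 18.3 CPM in NIR and 74.4 to 89.3 CPM in IR mixtures, against 3.37 to 4.86 and 29.2 to 32.4 CPM in HCT116, and their part in these results was not tested.

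Set against their own NIR libraries, irradiated mixtures had 17 members higher and 6 lower of 32 tested, among 24.0% higher and 25.4% lower of 16906 genes, with a median of 0.39 against 0.01. All 10 tested laminin genes were called, 9 higher and 1 (LAMA2) lower. LAMA3 rose by 1.70, ITGB4 by 1.13, ITGB8 by 1.11, LAMB3 by 1.09, LAMC3 by 1.07 and ITGB6 by 0.88. The MCF10A share of RNA also differed between the groups compared, at 0.413% in NIR and 1.23% in IR mixtures. For members far higher in MCF10A, such as LAMA3, LAMB3 and ITGB6, its part in these rises was not tested. LAMB1, not called in HCT116, went from 164.8, 177.1 and 161.0 to 218.3, 228.4 and 233.2 CPM (0.41, adjusted p = 3.8e-06), and ITGA3 from 331.1, 398.1 and 361.9 to 530.3, 473.9 and 479.1 CPM (0.42, adjusted p = 2.0e-05). ITGA2B (-0.88), ITGA1 (-0.78) and ITGAE (-0.64) fell. The falls of LAMA2 (-0.45), ITGAV (-0.17) and ITGA6 (-0.15) were not called with all 6 groups in 1 fit or without Mixed NIR replicate 2. Leaving out Mixed IR replicate 1 also ended the calls of LAMA2, ITGAV and LAMC1 (0.15, adjusted p = 0.051) and brought one for ITGA5 (-0.24, adjusted p = 0.033). ITGA6 was also lost without Mixed NIR replicate 3 or Mixed IR replicate 2 or 3, and LAMA2 without Mixed IR replicate 3.

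Tested directly, the response of the mixtures exceeded that of HCT116 for 3 of 34 members and fell short for 0, among 0.681% higher and 0.149% lower of 18072 genes. At an unadjusted p under 0.05 there were 10 in either direction, among 12.6% of all genes. The 123 higher calls over all genes ranged from 48 to 137 when 1 library was left out. ITGB3 differed by 3.09 (SE 0.470, adjusted p = 0.00059), with the library values given above for HCT116 and 2.40, 1.90 and 2.22 CPM in the NIR mixtures. LAMB3 differed by 0.60 (adjusted p = 0.039), a call lost with the replicate block (adjusted p = 0.059) and in 8 of 12 fits that left out 1 library, which were those without HCT116 NIR replicate 2 or 3, HCT116 IR replicate 2 or 3, Mixed NIR replicate 1, or any 1 Mixed IR library. The MCF10A share of RNA was 0.413% in NIR and 1.23% in IR mixtures, and its part in the LAMB3 difference was not tested. LAMA3 was not called at 0.02 (95% interval -0.23 to 0.27). ITGA3 was not called at 0.36 (adjusted p = 0.074), but was with DESeq2 (adjusted p = 0.039), with all 6 groups in 1 fit and without Mixed NIR replicate 2.

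The measured mixtures were also set beside a weighted sum of the monoculture means at the estimated RNA share, as a description. LAMA3 was at 1.28 times this sum in the NIR and 0.97 times in the IR mixtures, LAMB3 at 1.16 and 1.18 times, and ITGB4 at 0.96 and 1.04 times. The sum for LAMB3 itself was 48.35 CPM for NIR and 103.1 CPM for IR mixtures, beside measured means of 55.96 and 121.4 CPM. ITGB6 lay above the sum, with 5.36 CPM against 0.419 CPM in NIR mixtures and 10.0 CPM against 1.73 CPM in IR mixtures, ratios of 12.8 and 5.80. In NIR mixtures ITGB6 reached 10.0% of its MCF10A level, where the MCF10A-specific genes had a median of 0.411% and a 90th percentile of 1.77%. In IR mixtures it reached 7.49%, beside a median of 1.17% and a 90th percentile of 3.84%. Of the MCF10A-specific genes, 100% lay below ITGB6 in NIR and 95.65% in IR mixtures. ITGB3 was at 0.97 times the sum in NIR and 6.88 times in IR mixtures. The stretch upstream of ITGB6, chr2:160200323-160200522 on the minus strand, is shown because ITGB6 lay several-fold above the sum in both states. It does not hold TGANTCA.
ITGB6 upstream: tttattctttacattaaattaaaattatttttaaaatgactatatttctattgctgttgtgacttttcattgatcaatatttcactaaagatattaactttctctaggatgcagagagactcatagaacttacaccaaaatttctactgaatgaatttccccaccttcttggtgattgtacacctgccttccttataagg

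**Figure D4:**
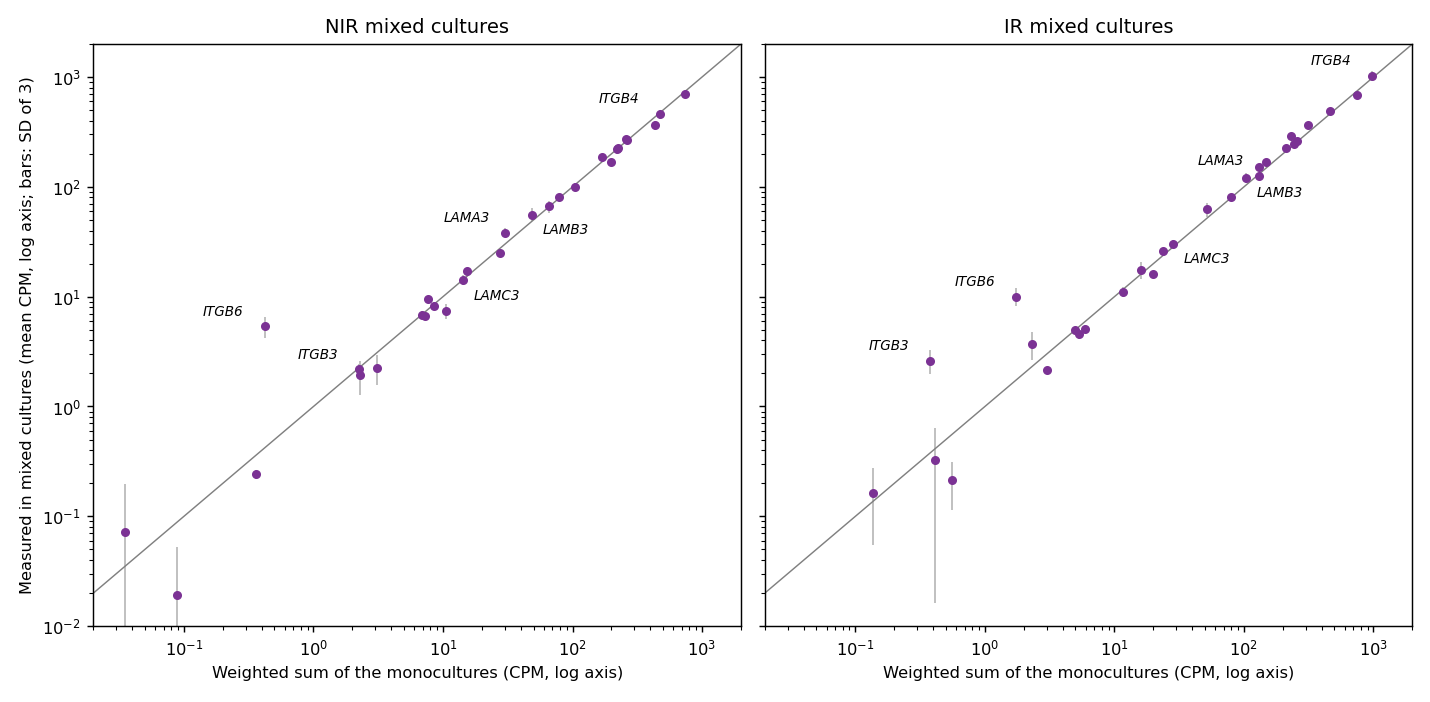
Mean CPM of members in the mixed cultures (vertical, log axis, bars are SD of 3 libraries) against the weighted sum of the monoculture means at the estimated RNA share (horizontal, log axis), without irradiation (left) and after 10 Gy (right); the line marks equality. ITGB6 lies above the line in both panels, at 5.36 and 10.0 CPM, and ITGB3 in the right panel at 2.61 CPM.

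The remaining adhesion genes followed from 2 lists, one of 56 genes of the integrin-linked machinery and one of 33 other basement-membrane genes. Both lists were chosen with earlier results of these data known, so their counts are a description only. In irradiated MCF10A 29 of 54 tested machinery genes were higher and 9 lower, and 20 of 27 basement-membrane genes higher and 2 lower, among 26.2% higher and 29.2% lower of all genes, with medians of 0.18 and 0.52 against 0 over all genes. FN1, the fibronectin that ITGA5 receptors bind, rose from 1325 ± 41.1 to 5769 ± 362 CPM (log2 fold change 2.10), and COL7A1, the anchoring-fibril collagen, by 1.21. The network collagens COL4A1 (-0.46) and COL4A2 (-0.52) were the basement-membrane genes that fell. In irradiated HCT116 the counts were 15 higher and 18 lower of 55 machinery genes and 12 higher and 8 lower of 26 basement-membrane genes, among 25.3% higher and 27.2% lower of all genes. The machinery counts were near that background. COL17A1, the hemidesmosome collagen, rose there from 3.41 ± 0.682 to 25.3 ± 2.57 CPM (2.88) and CD82, a tetraspanin that associates with integrins, by 2.05. COL4A3 (-1.59) and COL4A4 (-1.21) fell.

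In irradiated mixtures 19 machinery genes were higher and 12 lower of 55, and 16 basement-membrane genes higher and 5 lower of 28, among 24.0% higher and 25.4% lower of all genes. COL17A1 (2.26) and TNC (2.13), a matrix glycoprotein, led the rises, and COL4A4 (-1.21) and COL4A3 (-1.05) the falls. Between the lines without irradiation, 35 of 55 machinery and 19 of 28 basement-membrane genes were lower in HCT116, and 12 and 8 were higher, among 36.1% lower and 38.7% higher of all genes. NPNT, the nephronectin ligand of integrins, was at 39.8 ± 5.42 CPM in HCT116 and 0.019 ± 0.033 CPM in MCF10A. COL4A3 was higher in HCT116 by 5.80. COL4A1 and COL4A2 went the other way, at 120.3 ± 2.28 and 263.3 ± 5.98 CPM in MCF10A and 0.132 ± 0.079 and 0.139 ± 0.123 CPM in HCT116.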

How the data were processed

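The authors deposited 1 table of counts per gene symbol for each of 18 libraries, with no normalization. The submitters' processing notes name fastp, STAR, featureCounts and GRCh38; versions and the annotation are not given in the sources used here. Of counts between 1 and 10, 68.3% were even numbers, so counts were also halved as an alternative. Of 45 correlations between same-numbered libraries 3 were over 0.1 (range -0.129 to 0.174). All 3 set HCT116 beside mixtures of the same treatment: NIR replicates 1 (0.111) and 3 (0.174) and IR replicate 1 (0.128). The other such pairs were at -0.001 (NIR replicate 2), 0.042 and 0.028 (IR replicates 2 and 3). Main fits had no replicate block, which is an alternative, and pairing was not tested further. With the block, calls over all genes between NIR mixtures and HCT116 went from 146 higher and 189 lower to 319 and 397. Between IR mixtures and HCT116 they went from 871 and 596 to 1263 and 957.

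Each comparison was fitted in R 4.3.3 with edgeR 4.0.16 over all genes (TMM scaling, filterByExpr, 2-sided quasi-likelihood test) on the libraries of the groups compared, with Benjamini-Hochberg adjustment and a threshold of 0.05. DESeq2 1.42.0, other scalings, no filter, all 6 groups in 1 fit and leaving out each library were alternatives. Standard errors were derived as log2 fold change over the root of F, and 95% intervals are normal. CPM are counts over library totals times 1e+06. Fits were tested on simulated data: in the MCF10A simulation over 14886 genes, 80% of genes changed by 1 on the log2 scale and 66% of those changed by 0.5 were called. In that of the HCT116 minus MCF10A response, over 17544 genes, these were 51% and 30.6%. The MCF10A simulation changed 50 genes by 1 and 50 by 0.5, whereas 3976 higher and 4419 lower genes were called in the data. With so few changed genes the adjustment is stricter, so these percentages are no measure of the power of the reported tests.

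Members and lists were chosen with earlier results of these data known. Counts of members cover all 38, and the results of 1 member are left out of the text. Members with a mean of at least 5 CPM in a group were described singly, those from 10 CPM with library values. Single values of ITGAM and ITGAD, and library values of ITGB3, ITGA2B and ITGA4, were added after they were seen. The other low members are given by counts and ranges. From the adhesion lists the 2 largest called changes in each direction were named, among genes whose groups did not overlap and whose higher mean reached 10 CPM. Lengths are merged exons of GENCODE 29. P-values measure the spread between 3 libraries a group.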

Additional observations from a re-analysis of the deposited data

Results flagged for a closer look

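The differences between irradiation responses that passed the test of the difference itself are listed here on the log2 scale, for the members reported singly. For HCT116 minus MCF10A, the response was lower in HCT116 for ITGB3 (-5.53), ITGB6 (-2.41), ITGB2 (-1.70), ITGA1 (-1.37), ITGA5 (-1.29), ITGA2 (-1.05) and LAMA2 (-1.003). It was also lower for ITGAV (-0.94), ITGA3 (-0.76), LAMB3 (-0.75), ITGB1 (-0.68), LAMB2 (-0.42) and ITGA6 (-0.36). ITGB6 and ITGB2 were under 1 CPM in HCT116, and each kept the call in 11 of 12 fits that left out 1 library. ITGB3 had only 6, 17 and 8 counts in the HCT116 IR libraries. LAMA2 lost the call without MCF10A IR replicate 3. The response was higher in HCT116 for LAMA1 (4.64, a fitted value against a group with 0 counts), ITGA10 (1.49), LAMA4 (1.33), ITGB8 (0.75), LAMB1 (0.25) and LAMC1 (0.21). LAMB1 kept the call in 7 of 12 fits that left out 1 library. For mixed cultures minus HCT116, the response was higher in the mixtures for ITGB3 (3.09) and LAMB3 (0.60). This LAMB3 difference kept the call in 4 of 12 fits that left out 1 library. The MCF10A share of RNA was 0.413% in NIR and 1.23% in IR mixtures. The part of this shift in both differences was not tested.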

How the results depend on the processing

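The 30 members with a mean of at least 5 CPM in a group gave 158 called results. These include the member left out of the text. Of the 158, 134 kept their call and direction in every alternative and 24 lost the call in at least 1. The 1 reversal was LAMB2 in HCT116 IR against MCF10A IR with upper-quartile scaling, at 0.041 (adjusted p = 0.53). Of 18 counts of called members, 15 stayed within 1.5 times. Members lower in irradiated mixtures numbered 6, and 3 with all 6 groups in 1 fit; without 1 library they ranged from 3 to 6, with 3 without Mixed NIR replicate 2. Members lower in NIR mixtures than in HCT116 numbered 0, and 1 without a filter (ITGA3), with the replicate block (ITGA3), with all 6 groups in 1 fit (ITGB8) and without Mixed NIR replicate 2 (ITGA3), a range of 0 to 1 over left-out libraries. Members with a higher response in mixtures than in HCT116 numbered 3, and 6 without a filter. The replicate block called 13 members higher in IR mixtures against 10, and LAMA2 in MCF10A, ITGA6 in mixtures, LAMB1 between responses, ITGB3 between NIR lines and LAMB3 between mixture and HCT116 responses lost their calls with it. Upper-quartile scaling moved the share of higher calls over all genes from 47.4% to 57.5% in irradiated MCF10A and from 51.8% to 62.4% between the NIR lines; without mitochondrial and the most abundant genes it moved from 41.3% to 52.5% for HCT116 minus MCF10A, where no filter gave 51.9% and all 6 groups in 1 fit 51.8%. For mixtures against HCT116 the calls over all genes moved with all 6 groups in 1 fit, from 43.6% to 63.8% higher without and from 59.4% to 80.5% higher with irradiation. Members near 0 in a line, such as ITGB6, ITGB2, ITGA4 and LAMA1 in HCT116 and LAMC3 in MCF10A, are limited by counts of 0 to 15 a library.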
